A study of Mus musculus with 2 samples.

Results

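The SoxE genes Sox8, Sox9 and Sox10 were examined in DNase-seq data of whole mouse embryos, as 3 of the 21938 protein-coding genes of GENCODE M21. DNase I cuts DNA most readily where nucleosomes are displaced, so a called peak marks an open site in at least some of the cells. Every peak and hotspot that touched a gene body or its 100 kb on each side was taken, and for Sox9 the window reached 1.5 Mb upstream and 500 kb downstream. In the mm10 assembly Sox8 lies at chr17:25565892-25570686 on the minus strand, Sox9 at chr11:112782224-112787760 on the plus strand and Sox10 at chr15:79154908-79165240 on the minus strand. These windows held 337 of the 207946 nuclear peaks of replicate 1 and 343 of the 229568 of replicate 2. They also held 314 of 188404 and 294 of 188191 hotspots, the wider stretches of raised cutting. Both libraries came from the single group of the study, B6NCrl embryos of embryonic day 10.5, labelled healthy, with both sexes pooled and no treatment named. Biological replicates, they come from separate samples of 1 inbred donor strain record, and the number of embryos in each pool is not given in the sources used here. They are whole embryos, so all tissues are mixed, and no genotype, treatment or tissue contrast exists in the design. All values below are therefore levels and counts, with no test between conditions.

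Each deposited peak is 150 bp wide and carries a whole-number score of the authors, here called peak strength, from 2 to 149 on nuclear chromosomes. The files do not define it, and no higher score occurs, so differences among strong peaks may be compressed. Across all peaks its median was 41 in replicate 1 and 50 in replicate 2, and the depth of the libraries is unknown. A shared peak is a pair of peaks, 1 from each replicate, that overlap by at least 1 bp and are each other's best match. The genome held 152104 shared peaks, of which 111172 lay more than 1 kb from any annotated transcription start site (TSS) and are called distal. Open promoters are those with a peak in each replicate at most 1 kb away from a TSS of the gene. Markers of the tissues of such an embryo were open at 4 of 4 neural tube genes, 4 of 4 limb and mesenchyme genes, and 3 of 4 genes each for heart, somite and endothelium. Of 4 gut and liver genes 2 were open. Of all protein-coding genes 69.7% were open, so 3 of 4 is near the share of any gene and marks no tissue by itself. None of 4 genes of primitive red cells and none of 4 genes of trophoblast and decidua was open in both replicates. In a whole embryo, fewer cells of a type and less openness per cell cannot be told apart.

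SoxE proteins are transcription factors with an HMG box, a domain that binds the minor groove of DNA at short sites such as ACAAAG and ACAATG and bends it. They can bind as dimers to a pair of such sites that face each other. Sox9 drives cartilage formation and the male fate of the gonad, and it is used early in the neural crest and in neural stem cells. Sox10 keeps crest cells multipotent and then directs glia, melanocytes and enteric neurons. Sox8 overlaps with both of the others in crest, gonad and glia. The gene desert around Sox9 is known for enhancers that act over long distances in jaw, limb, cartilage and gonad.

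The promoter peaks of Sox8 and Sox9 are shown first, since they were the strongest sites of these genes. Both sequences are the replicate 1 peak, read from the RefSeq copy of GRCm38.p6 (the mm10 assembly) on the strand of the gene, 5′ to 3′. Capitals mark CpG dinucleotides. The Sox8 peak (chr17:25570736-25570885, minus strand) ends 50 bp before the TSS and overlaps an exon of the antisense transcript 2810468N07Rik. The Sox9 peak (chr11:112782056-112782205, plus strand) ends 19 bp before the TSS.
Sox8 promoter: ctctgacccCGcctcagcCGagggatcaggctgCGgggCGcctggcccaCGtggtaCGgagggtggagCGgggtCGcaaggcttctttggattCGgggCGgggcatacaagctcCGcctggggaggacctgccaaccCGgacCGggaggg
Sox9 promoter: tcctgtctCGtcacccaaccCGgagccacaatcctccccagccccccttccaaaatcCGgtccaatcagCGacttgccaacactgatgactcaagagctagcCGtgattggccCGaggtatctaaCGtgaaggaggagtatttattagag
The Sox8 sequence holds 13 CpG at 71.3% GC, and the Sox9 sequence holds 7 CpG at 54.0% GC. Neither holds a match to any of the 10 motifs searched below.

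The strongest distal sites of the windows are printed next, all on the plus strand. Capitals mark matches, on either strand, to a SOX hexamer (ACAAAG or ACAATG), to the E-box CATCTG or to a CTCF core, defined as CC, AG and GGC in this order with 3 and then 2 bases of any kind between them. CTCF is the protein that anchors chromatin loops. The first site lies between genes at chr11:112501916-112502065, 280.2 kb upstream of Sox9. The next lies between genes at chr11:112811216-112811365, 29.1 kb downstream of the Sox9 TSS. It was added after its values were seen, as the strongest distal peak that holds a SOX hexamer. The last 2 lie in introns, at chr17:25470036-25470185 in Tekt4 and at chr15:79224836-79224985 in the noncoding gene Gm10863.
Sox9 upstream site: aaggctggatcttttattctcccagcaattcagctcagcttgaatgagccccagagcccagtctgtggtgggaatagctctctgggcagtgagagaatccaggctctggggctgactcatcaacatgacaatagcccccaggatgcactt
Sox9 downstream site: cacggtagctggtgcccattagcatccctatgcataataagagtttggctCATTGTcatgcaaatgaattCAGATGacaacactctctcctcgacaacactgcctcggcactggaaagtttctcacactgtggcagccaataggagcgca
Sox8 window site: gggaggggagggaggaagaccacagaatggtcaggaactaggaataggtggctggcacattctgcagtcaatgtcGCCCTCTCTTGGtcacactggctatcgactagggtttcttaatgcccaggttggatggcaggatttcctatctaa
Sox10 window site: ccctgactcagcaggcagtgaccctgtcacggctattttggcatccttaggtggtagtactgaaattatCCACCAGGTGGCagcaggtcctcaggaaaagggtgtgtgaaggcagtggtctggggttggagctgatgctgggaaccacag
The Sox9 upstream site, the strongest distal peak of the windows, holds no capitals and no match to any of the 10 motifs. The downstream site holds CATTGT, the reverse complement of a SOX hexamer, from position 51, and CAGATG, that of the E-box, from position 71. Positions count from 1 at the left end. The leading sites of the Sox8 and Sox10 windows each hold a CTCF core, from positions 76 and 70.

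Sox9 had the strongest promoter of the 3 genes. Its peak scored 130 in replicate 1 and 131 in replicate 2 (130.5 ± 0.707, SD, n = 2). Sox8 scored 128 and 126 (127 ± 1.41, SD, n = 2), so its range lay just below that of Sox9 without overlap. Sox10 scored 33 and 51 (42 ± 12.7, SD, n = 2), far below both others in each replicate. All 3 promoters counted as open, as did 69.7% of all protein-coding genes, so being open sets none of them apart. Their places among the 15300 open promoters differed widely, with 84.1% of open promoters weaker than that of Sox9, 76.0% weaker than that of Sox8 and 3.39% weaker than that of Sox10. The median open promoter had a mean strength of 113.5.

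The Sox10 promoter was weak by the hotspots too. Its shared peak (chr15:79164436-79164585 in replicate 1) covers 3 of the 4 annotated start sites of Sox10, and its centre is 730 bp inside the gene from the 5′-most one. In replicate 1 it overlapped a hotspot of only 54 bp with a −log10 q of 1.61, and in replicate 2 one of 176 bp with 1.94, close to the lowest deposited value of 1.3. Replicate 2 had a further peak at the 5′-most start site (strength 45), which overlapped a hotspot of 145 bp with a −log10 q of 1.78. Replicate 1 had no peak there. A stronger shared peak lay 1.66 kb upstream of Sox10 (58 and 63), but within 1 kb of the start of Gm10863, a noncoding gene that runs the other way. With a TSS window of 2500 bp this peak would raise the mean of Sox10 to 60.5.

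The Sox8 and Sox9 promoters lay in wide hotspots at the deposited cap of 100. Of all hotspots, 34.4% in replicate 1 and 35.3% in replicate 2 were at this cap, and the median widths of all were 245 and 260 bp. For Sox8 the promoter hotspots measured 901 bp in replicate 1 and 1793 bp in replicate 2. For Sox9 a hotspot of 1363 bp in replicate 1 and of 2409 bp in replicate 2 covered the TSS, and a second lay 365 bp upstream of it (845 and 2711 bp). Each Sox8 and Sox9 hotspot was wider in replicate 2. Further peaks stood around the main one, for Sox8 only in replicate 2 and for Sox9 in both replicates. Sox8 had 4 peaks within 1 kb of a TSS in replicate 2 (56, 126, 79 and 53) and 1 in replicate 1. Sox9 had 4 in replicate 1 (62, 84, 130 and 66) and 3 in replicate 2 (97, 131 and 75). A noncoding transcript starts close to each of these promoters, BC006965 at 0.248 kb upstream of Sox9 and 2810468N07Rik at 0.328 kb inside Sox8. The share of the signal that belongs to each partner cannot be told apart here.

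**Figure D1:**
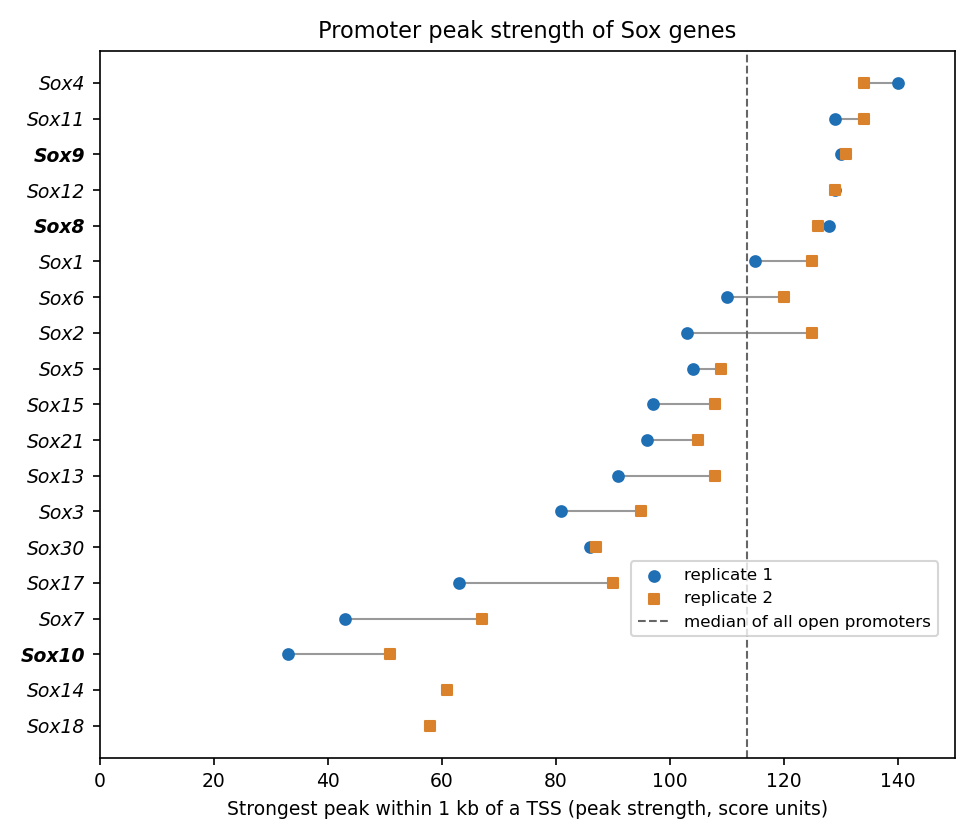
Strength of the strongest promoter peak (horizontal axis, score units from 0 to 150) of the 19 listed Sox genes, with circles for replicate 1, squares for replicate 2 and a line joining the pair. Sox9 and Sox8 stand in the 3rd and 5th place, Sox10 is the weakest gene with a peak in both replicates, and Sox14 and Sox18 have a peak only in replicate 2.

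Other listed genes of the Sox family place these values. Of the 16 other Sox genes listed, 14 were open, a share of 87.5% against the 69.7% of all genes. Sox4 (140 and 134) and Sox11 (129 and 134), SoxC genes of early neurons and mesenchyme, were above Sox9 in mean strength, although the ranges of Sox9 and Sox11 overlapped. Sox12 (129 in both replicates) lay between Sox9 and Sox8. The SoxB1 genes of neural progenitors were lower, Sox1 (115 and 125), Sox2 (103 and 125) and Sox3 (81 and 95). Sox5 (104 and 109) and Sox6 (110 and 120), the SoxD partners of Sox9 in cartilage, lay in the middle. Of the SoxF genes of endothelium, Sox7 (43 and 67) was next above Sox10, Sox17 (63 and 90) was higher, and Sox18 had a peak of 58 in replicate 2 only, as did Sox14 with 61. The ranges of Sox7 and Sox10 overlapped.

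Sox9 stood in a long stretch with few protein-coding genes and with open sites on both sides. Its window of 2005.5 kb held 252 peaks in replicate 1 and 250 in replicate 2, of which 178 were shared. That is 8.88 shared peaks per 100 kb, against 5.75 over the ungapped genome. Of these, 171 were distal, and 126 of the 171 lay outside any annotated gene. Sox9 was the nearest protein-coding gene for 113 of them, Kcnj2, a potassium channel gene beyond the far end of the desert, for 41, and Slc39a11, a zinc transporter gene that enters the window from downstream, for 17. In windows of the same shape around all protein-coding genes the median was 160 shared peaks, and 58.6% of genes had fewer than Sox9. The count of all shared peaks was thus close to that of a typical gene. For distal shared peaks the median was 107, and 90.4% of genes had fewer than Sox9. Only 156 such windows touched at most 2 protein-coding genes, as that of Sox9 does. Their median was 24, and the long gene Auts2 and Zfp608 had more than Sox9. This last comparison was chosen after the values were seen. Its windows were not trimmed at chromosome ends or assembly gaps, and those of neighbouring genes can overlap. How far missing sequence lowers their median was not tested.

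**Figure D2:**
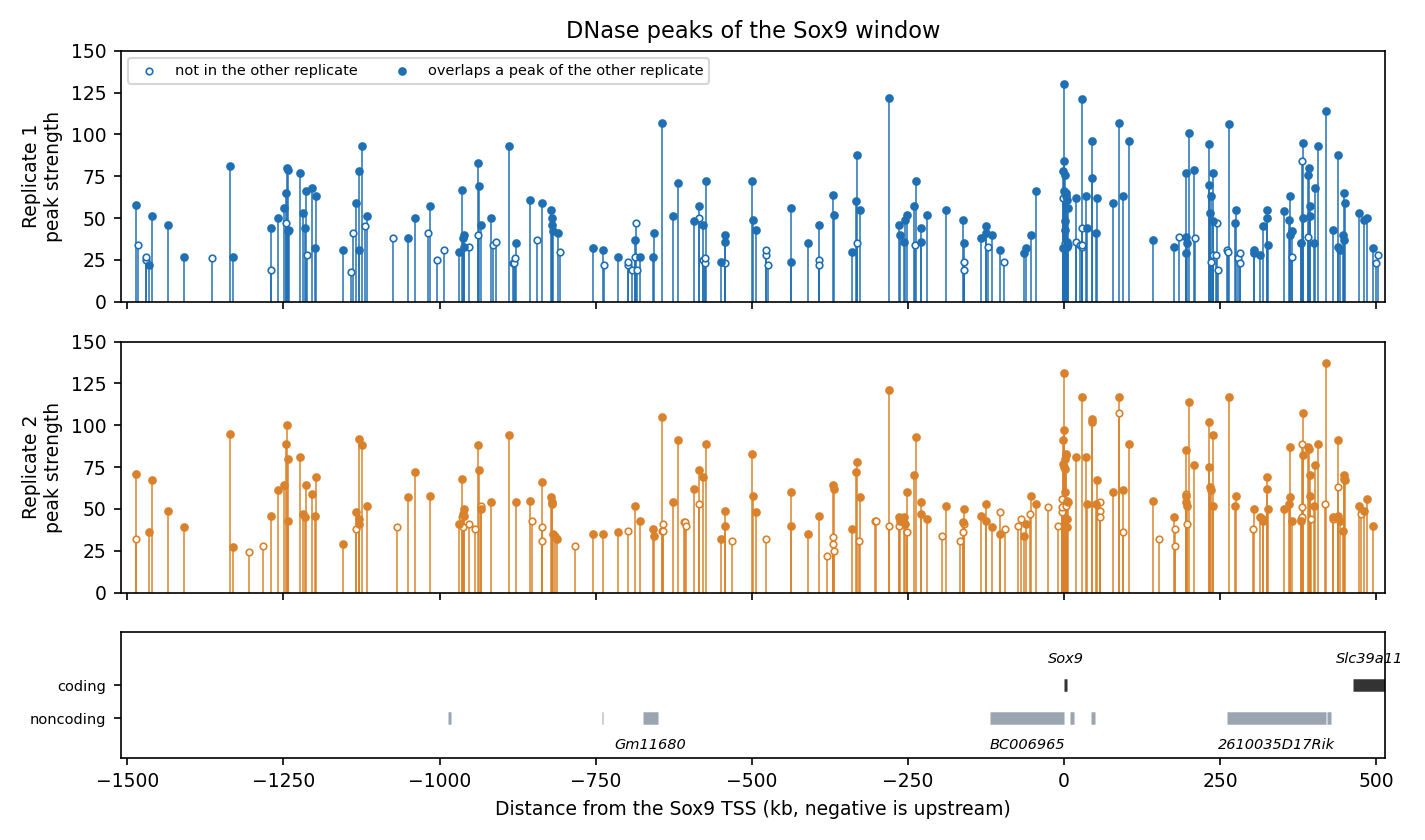
Peak strength (vertical axis, score units) against distance from the Sox9 TSS in kb, with negative values upstream, for replicate 1 (top) and replicate 2 (middle), and annotated genes at the bottom. Filled points overlap a peak of the other replicate; the peaks at the TSS (130 and 131) and 280.2 kb upstream (122 and 121) reach like heights in both.

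Density was higher downstream than upstream. The 1.5 Mb upstream of Sox9 held 102 distal shared peaks, or 6.8 per 100 kb, and the 500 kb downstream held 69, or 13.8 per 100 kb, against 4.20 over the genome. The first 100 kb downstream, which include the gene body, had the highest count of the 20 bins of 100 kb, with 27 distal peaks in replicate 1, 26 in replicate 2 and 20 shared. The lowest counts, 2 shared peaks each, were found 1300 to 1400 kb and 700 to 800 kb upstream, and both replicates had 3 peaks in each of these bins. The bin 200 to 300 kb downstream had 22 peaks in replicate 1 and 11 in replicate 2, and the first 100 kb upstream had 7 and 15, the reverse order. Upstream, the segments of 500 kb held 38, 34 and 30 distal shared peaks from the gene outwards. The longest stretch without a shared peak, in replicate 1 coordinates, was 72.7 kb, from 1336 to 1409 kb upstream (chr11:111373186-111445895). The median distance between the starts of neighbouring shared peaks was 6 kb.

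**Figure D3:**
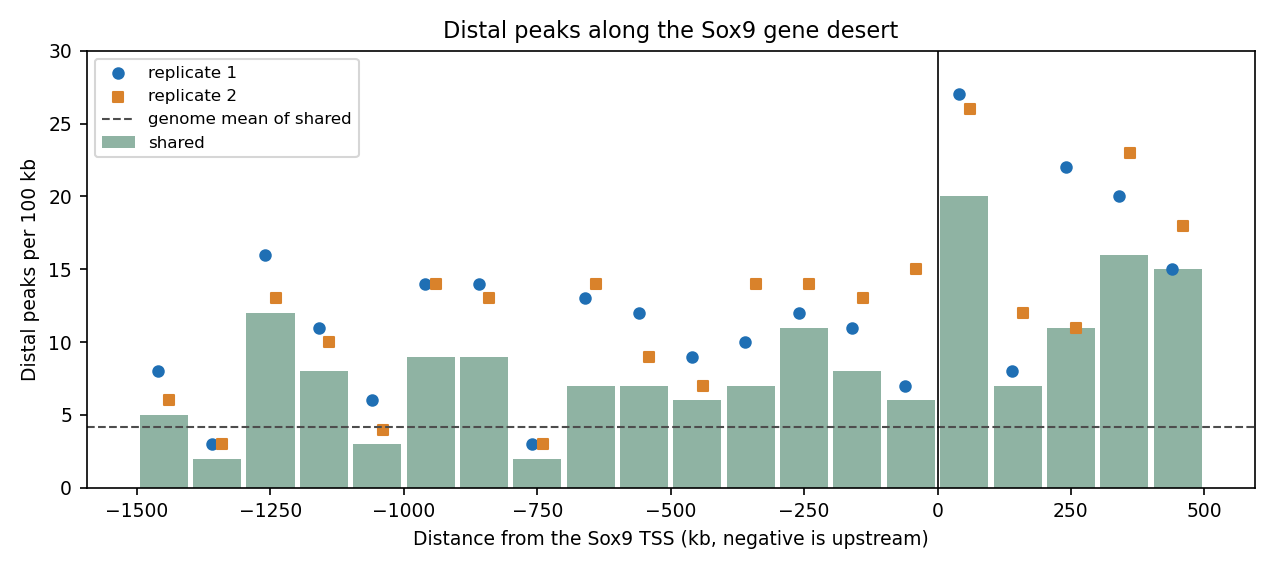
Number of distal peaks per bin of 100 kb (vertical axis) against distance from the Sox9 TSS (horizontal axis, kb), with bars for shared peaks, circles for replicate 1, squares for replicate 2 and a dashed line at the genome mean of 4.20 shared. The bar next to the gene on the downstream side reaches 20, and the lowest bars, at 2, fall below the dashed line.

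Strength at distal sites varied along the desert. The site 280.2 kb upstream, shown above, scored 122 and 121, and 99.6% of distal shared peaks of the genome were weaker. The site 29.1 kb downstream scored 121 and 117. Next came 3 sites on the downstream side. One lay at 88.2 kb (chr11:112870376-112870525, 107 and 117) and one at 264.2 kb (chr11:113046316-113046465, 106 and 117), in an intron of the noncoding gene 2610035D17Rik. The third lay at 200.5 kb (chr11:112982676-112982825, 101 and 114). All 5 scored above 100 in both replicates.

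By their means, the leading sites over 500 kb upstream did not reach these 5, although the typical site there was no weaker than closer upstream. The median mean strength of distal shared peaks was 56.5 from 1.5 to 1 Mb upstream, 49 from 1 Mb to 500 kb, 47.5 within 500 kb upstream and 58 downstream. Between 1 Mb and 500 kb upstream the leading site lay at 644.4 kb (chr11:112137736-112137885, 107 and 105), ahead of sites at 888.1 kb (93 and 94) and 938.3 kb (83 and 88). Between 1.5 and 1 Mb upstream no distal shared peak reached a mean of 100, and the leading ones lay at 1124 kb (93 and 88), 1244 kb (80 and 100) and 1336 kb (81 and 95). Closer to the gene, after the site at 280.2 kb, came sites 2.27 kb upstream (78 and 91) in an intron of BC006965 and 331.8 kb upstream (88 and 78). Taken over the 171 distal shared peaks the median strength was 50 in replicate 1 and 55 in replicate 2, against 45 and 55 for all distal shared peaks. Of the 171, 17 (9.94%) were among the strongest 10% of distal shared peaks of the genome. The desert held many open sites of ordinary strength and a few strong ones. Ranks of strength in the replicates ran in parallel, with a Spearman's rho of 0.851 across these 171 peaks, as did those of all distal shared peaks (0.881). Peaks are not independent replicates, so these are descriptions.

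Outside the Sox9 promoter, the strongest site in this window by its mean was at the start of the noncoding gene 2610035D17Rik, 419.6 kb downstream. Its peak scored 114 in replicate 1 and 137 in replicate 2, above Sox9 itself in replicate 2 and below it in replicate 1. Of the other noncoding genes and pseudogenes that start in the window, Gm11679 had a weak peak (31 and 35). Gm11674, Gm11676, Gm11677, Gm11680, Gm11681, 4933434M16Rik and 4732490B19Rik had no peak within 1 kb of a start in either replicate.

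The windows of Sox8 and Sox10 were short and gene-rich by comparison. The Sox8 window of 204.8 kb touched 4 protein-coding genes and held 39 peaks in replicate 1 and 40 in replicate 2, with 31 shared. The Sox10 window of 210.3 kb touched 10 and held 46 and 53, with 36 shared. In the same frame of gene body plus 100 kb on each side Sox9 had 30. The median of all protein-coding genes was 21, and 75.6%, 73.5% and 84.7% of genes had fewer than Sox8, Sox9 and Sox10. For distal shared peaks the order differed, with 27 at Sox9, 23 at Sox8 and 18 at Sox10 against a median of 11, and with 92.5%, 87.1% and 75.1% of genes having fewer. In the Sox10 window 18 of the 36 shared peaks lay within 1 kb of a TSS, in that of Sox8 8 of 31, and in the wide window of Sox9 7 of 178.

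**Figure D4:**
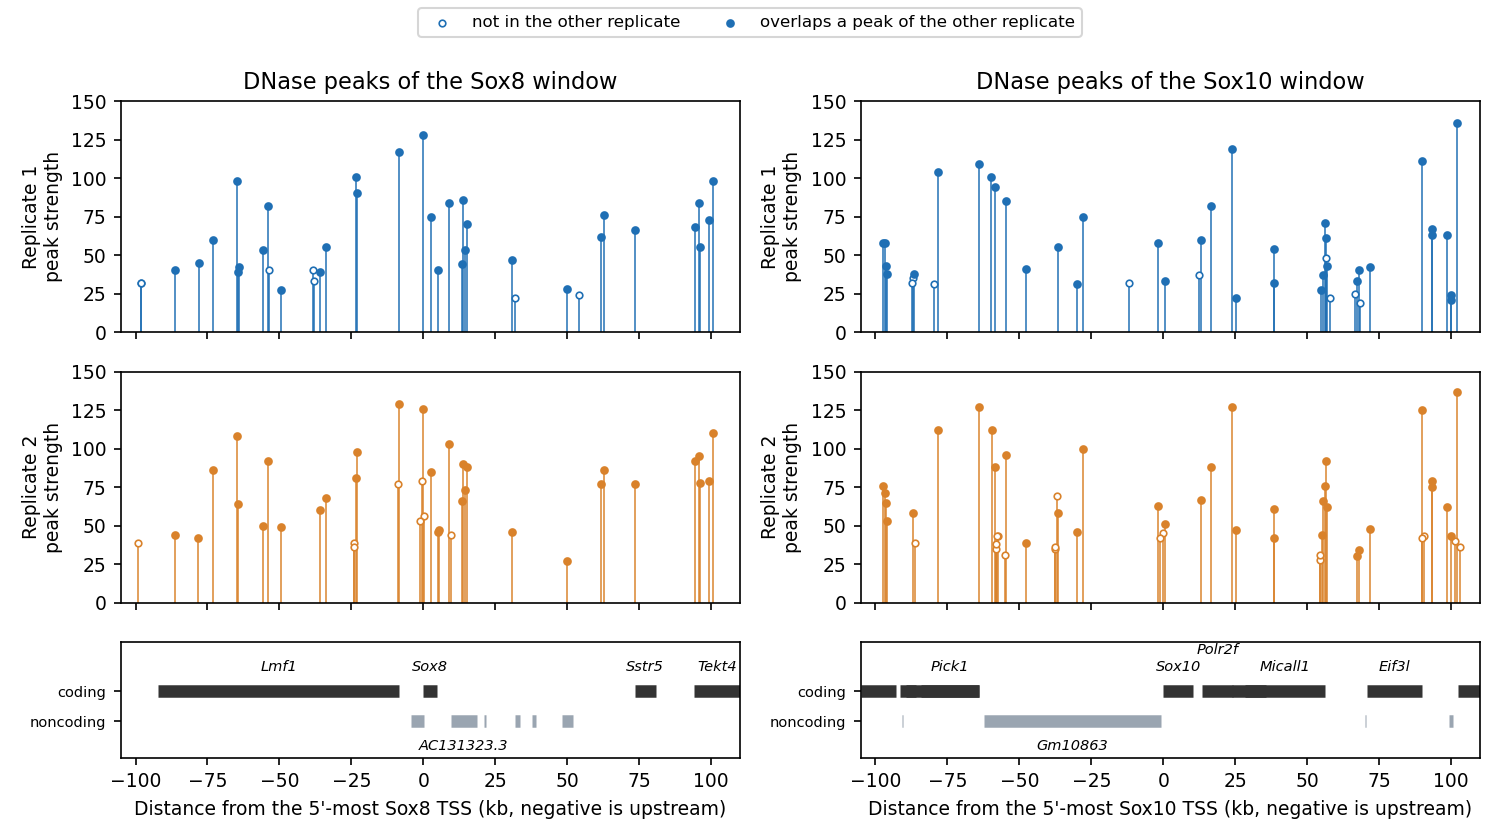
Peak strength (vertical axis, score units) against distance from the 5′-most TSS in kb, negative upstream, in the Sox8 window (left) and the Sox10 window (right), with replicate 1 on top, replicate 2 in the middle and annotated genes below. Filled points overlap a peak of the other replicate; a peak of 128 and 126 stands at the Sox8 TSS, while the tall peaks of the Sox10 window stand away from Sox10.

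Around Sox8 the open sites fell into groups on both sides. Upstream lies Lmf1, the gene of a lipase maturation factor, whose promoter peak (117 and 129) stood 8.42 kb from the Sox8 TSS. Of the 23 distal shared peaks, 11 lay in introns of Lmf1, 4 in introns of the noncoding gene AC131323.3 and 1 in the Sox8 gene itself. The last covered an exon of Sox8 2.71 kb from the TSS (chr17:25567896-25568045, 75 and 85). The strongest in Lmf1 lay 64.8 kb upstream (chr17:25635456-25635605, 98 and 108). A pair of sites followed at 22.9 kb (90 and 98) and 23.4 kb upstream (101 and 81), in the widest Sox8 hotspot of replicate 1 (1512 bp). In AC131323.3, 4 shared peaks stood between 13.5 and 15.3 kb downstream, led by one of 86 and 90 (chr17:25556756-25556905), in the widest hotspot of replicate 2 (2212 bp). The highest distal value, 98 and 110, belonged to the Tekt4 site shown above, 1.47 kb from a start of that gene. Tekt4 encodes a filament protein of cilia and sperm tails. Of the 23 distal peaks 6 (26.1%) were among the strongest 10% of the genome.

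Around Sox10 the strongest peaks were those of neighbouring promoters. They stood at Ankrd54 (136 and 137), at the start shared by Polr2f, a subunit of the RNA polymerases, and 1700088E04Rik (119 and 127), at Eif3l, a subunit of a translation initiation factor (111 and 125), and at Pick1 (109 and 127). Each exceeded the Sox10 promoter (33 and 51) in both replicates. Upstream of Sox10, 7 distal shared peaks lay in introns of Gm10863. Those at 59.7 kb (101 and 112), 58.6 kb (94 and 88) and 54.5 kb (85 and 96) were close to Pick1, with 4.27 to 9.40 kb to its nearest start. The site at 27.8 kb (chr15:79192996-79193145, 75 and 100) and a weak one at 29.9 kb (31 and 46) were the 2 of the 18 distal shared peaks for which Sox10 was the nearest protein-coding gene. Downstream, peaks 16.5 kb (82 and 88) and 13.2 kb (60 and 67) from the 5′-most TSS stood in and just past Polr2f. No distal shared peak lay inside the Sox10 gene body. Of the 18 distal shared peaks 4 (22.2%) were among the strongest 10% of the genome.

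Most peaks of these windows were found again in the other replicate, as were most peaks of the genome. For Sox9, 71.0% of replicate 1 peaks and 71.6% of replicate 2 peaks overlapped a peak of the other replicate, against 74.5% and 67.6% of all peaks. For Sox8 the shares were 82.1% (32 of 39) and 80.0% (32 of 40), and for Sox10 80.4% (37 of 46) and 67.9% (36 of 53). Unshared peaks were weak, with medians of 29 to 32 in replicate 1 and 39 to 48.5 in replicate 2 in the 3 windows, against 28 and 36 for all unshared peaks. The strongest unshared distal peak of the Sox9 window was one of 107 in replicate 2, 88.5 kb downstream, next to the shared site at 88.2 kb and 91 bp from the nearest replicate 1 peak. That of replicate 1 scored 84, 381.9 kb downstream, 31 bp from a peak of replicate 2. Around Sox10 the strongest was one of 69 in replicate 2, 36.9 kb upstream, in no hotspot of replicate 1, against 37 in replicate 1. Around Sox8 they scored 40 and 39. Shared peaks were mostly higher in replicate 2, in 140 of 178 for Sox9, 25 of 31 for Sox8 and 31 of 36 for Sox10. As log2 ratios of replicate 2 over replicate 1 the medians were 0.18, 0.18 and 0.21, against 0.26 over all shared peaks. The Sox10 promoter had a ratio of 0.63, and those of Sox9 and Sox8 had 0.01 and -0.02.

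Hotspots covered a larger part of these windows than of the genome in both replicates. Surroundings of genes are denser in peaks in general. With 100 kb on each side, the median protein-coding gene had 8.56 shared peaks per 100 kb, against 5.75 over the genome. Hotspot cover around other genes was not measured, so the difference cannot be called particular to these genes. In the Sox9 window 236 hotspots of replicate 1 covered 74.7 kb (3.73%) and 219 of replicate 2 covered 86.4 kb (4.31%), against 2.27% and 2.98% of the genome. The widest of the Sox9 window in replicate 1 was 1493 bp, 938.2 kb upstream (chr11:111843326-111844818), and in replicate 2 it was the one of 2711 bp beside the promoter. In the Sox8 window 38 and 31 hotspots covered 6.31% and 8.01%, and in that of Sox10 40 and 44 covered 6.73% and 8.86%. The widest of the Sox10 window lay at the promoter of Micall1, about 56 kb downstream, in both replicates (1906 and 2492 bp). In each window covered length was greater in replicate 2.

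Matches to SOX hexamers in distal shared peaks of the windows were near their share in the genome. ACAAAG stood in 28 of 171 peaks around Sox9 (16.4%), 5 of 23 around Sox8 and 3 of 18 around Sox10, against 16.6% of all distal shared peaks. ACAATG stood in 17 of 171 (9.94%), 2 of 23 and 3 of 18, against 9.76%. Either hexamer was present in 41 of 171 (24%), 6 of 23 (26.1%) and 5 of 18 (27.8%), against 24.5%. Matches were sought on both strands of the 150 bp of the replicate 1 peak. A match is a run of letters and shows no binding, and its absence from a window says nothing about the factor.

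Facing pairs of SOX-like sites, the arrangement bound by SoxE dimers, were rare. The pattern ACAA, then 7 to 9 bases of any kind, then TTGT stood in 5 of 171 Sox9 peaks (2.92%), 1 of 23 Sox8 peaks and no Sox10 peak, against 1.43% of all distal shared peaks. The pattern is looser than a pair of hexamers. The 6 peaks are printed because they hold this arrangement in the windows of the genes of the factors that use it. Only the one 326.7 kb downstream of Sox9 had a SoxE gene as its nearest protein-coding gene. The sequences are on the plus strand, with the facing pair and any SOX hexamer in capitals. The 6 peaks lie at chr17:25635456-25635605, chr11:111536196-111536345, chr11:113184136-113184285, chr11:113232176-113232325, chr11:113108916-113109065 and chr11:113277196-113277345, in the order of the lines.
Sox8 64.8 kb upstream: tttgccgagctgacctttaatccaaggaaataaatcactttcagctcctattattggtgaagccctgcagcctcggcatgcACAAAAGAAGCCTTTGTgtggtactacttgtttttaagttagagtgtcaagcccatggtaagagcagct
Sox9 1246 kb upstream: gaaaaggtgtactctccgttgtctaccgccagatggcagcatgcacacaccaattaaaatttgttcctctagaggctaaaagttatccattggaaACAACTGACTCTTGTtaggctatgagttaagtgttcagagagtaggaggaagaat
Sox9 402.0 kb downstream: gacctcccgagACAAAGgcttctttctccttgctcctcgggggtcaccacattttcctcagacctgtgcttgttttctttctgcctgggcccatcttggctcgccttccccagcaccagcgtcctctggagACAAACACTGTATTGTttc
Sox9 450.0 kb downstream: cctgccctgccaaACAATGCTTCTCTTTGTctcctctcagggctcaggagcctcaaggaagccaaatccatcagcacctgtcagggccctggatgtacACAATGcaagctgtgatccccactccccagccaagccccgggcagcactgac
Sox9 326.7 kb downstream: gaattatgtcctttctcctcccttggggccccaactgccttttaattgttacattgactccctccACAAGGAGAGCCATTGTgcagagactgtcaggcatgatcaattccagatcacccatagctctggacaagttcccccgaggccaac
Sox9 495.0 kb downstream: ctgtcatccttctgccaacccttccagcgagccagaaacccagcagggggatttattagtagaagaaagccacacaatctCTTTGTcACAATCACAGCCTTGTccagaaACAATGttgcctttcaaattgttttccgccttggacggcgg
The Sox8 site in the Lmf1 intron scored 98 and 108, the highest of the 6. The Sox9 sites scored 65 and 89, 68 and 76, 59 and 67, 34 and 50, and 32 and 40 in the order of the lines. In the peak 450.0 kb downstream, ACAATG and CTTTGT, the reverse complement of ACAAAG, face each other, so both members of the pair are full hexamers.

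Among the other motifs, the CTCF core differed most between the windows, with no test made. It stood in 13 of 171 distal peaks of the Sox9 window (7.60%), 6 of 23 around Sox8 (26.1%) and 4 of 18 around Sox10 (22.2%), against 13.8% of all distal shared peaks. A pair of the 4 Sox10 peaks overlap and share most of their bases. With overlapping peaks counted as 1 site, the core stood in 3 of 16 Sox10 sites (18.8%), 13 of 170 Sox9 sites and 6 of 23 Sox8 sites, against 13.8% of all sites. E-boxes of twist and proneural type (CATCTG) stood in 37 of 171, 2 of 23 and 1 of 18, against 19.8%, and CAGCTG in 32, 4 and 4, against 17.3%. The CATCTG E-box can overlap a CTCF core, so these counts are not independent. The homeobox site TAATTA stood in 10 of 171 Sox9 peaks (5.85%) and in none of the others, against 4.29%. The LEF/TCF site CTTTGAA of the Wnt pathway also stood in 10 of 171 (5.85%) and in none of the others, against 4.6%. A TFAP2 site, GCC and GGC with 3 bases between them, stood in 6, 2 and 1, against 5.41%. The GLI site GACCACCCA of the hedgehog pathway stood in none of the 212 peaks, against 0.273%, with a 95% Wilson interval up to 1.78%. Median GC content was 49.3% in the Sox9 window, 54.7% around Sox8 and 55.3% around Sox10, against 50% of all distal shared peaks, and its part in the motif shares was not tested.

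Promoters of the genes that act with SoxE factors were mostly open, as were those of most protein-coding genes. All 15 listed specifiers of the neural crest, which include Sox5 and Sox6, were open, against 69.7% of all genes, with a median strength of 113. Id3 (127 and 133), an inhibitor of bHLH factors, Snai1 (121 and 133), a driver of cell delamination, and Msx1 (124 and 126) led. Foxd3 (59 and 62), an early crest factor that acts with Sox10, was the weakest of the 15. Of 18 partners and targets of Sox10, 14 were open (77.8%, near the 69.7% of all genes), with a median strength of 96.8. Mitf (121 and 129), the melanocyte regulator, and Egr2 (116 and 129), a factor of hindbrain and Schwann cells, were among the strongest. Cdh19 (28 and 54), a cadherin of crest-derived glia, was about as weak as Sox10 itself. Tyrp1, a pigment enzyme gene, Gjb1, a connexin gene on the X chromosome, and the glial gene S100b were among those with no promoter peak in either replicate.

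Of 17 partners and targets of Sox9 in cartilage 15 were open (88.2%, against 69.7% of all genes), with a median strength of 98, below the 113.5 of all open promoters. Col11a1 (126 and 135) and Col2a1 (120 and 125), genes of cartilage collagens, and Pax9 (126 and 127), a sclerotome factor, led. Other matrix genes spread widely. Matn3 (95 and 125), Hapln1 (93 and 110) and Col9a1 (98 and 98) were in the upper part of the list, and Acan (42 and 60), the aggrecan gene, Col9a3 (35 and 52) and Col11a2 (37 and 47) were the weakest open ones. Matn1, a cartilage matrilin gene, and Col10a1, the collagen gene of hypertrophic chondrocytes, had no peak. Of 10 gonad genes of the Sox9 circuit 9 were open (90%, against 69.7% of all genes), with a median strength of 76. Fgf9 (99 and 107), a growth factor that maintains Sox9, Gata4 (68 and 104) and Cyp26b1 (81 and 89) led. Nr5a1 scored 45 and 79, Dmrt1 39 and 59, and Wt1 72 and 80. All 9 were below the median of all open promoters in both replicates (109 and 118), and Ptgds had no peak. The lists are small, and no test of them was made.

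The genes most like each member were sought over 5 measures in the 2 libraries, the promoter strength and the number of peaks within 100 kb in each replicate and the number of shared peaks, each as a rank percentile over all protein-coding genes. Nearest to Sox10 were Ly6g5b (33 and 46, with 36 shared peaks), Ncmap (28 and 55, with 37) and Ppp2r2c (30 and 48, with 37), at distances of 1.54, 2.96 and 2.99 percentile points. Nearest to Sox9 were Slc52a2 (3.04), Tpd52l2 (4.40) and Ick (4.63), and nearest to Sox8 were Tulp3 (4.35), Pik3r1 (5.15) and Hnrnpa0 (5.21). No other SoxE gene was among the 3 nearest of any member.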

How the data were processed

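The peak and hotspot calls of the 2 libraries were used as deposited. The authors made them separately for each library, on mm10, per the labels and the notes deposited with the files. The aligner and caller with their settings: not given in the sources used here. Peak strength is the score deposited by the authors in the peak files. Hotspot values are −log10 of q-values deposited by the authors, from 1.3 to 6, with 100 for smaller q-values.

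Peaks off the nuclear chromosomes were left out, and 28 and 47 repeated lines were dropped. Gene models were GENCODE M21, and sequences were read from GRCm38.p6, the RefSeq copy of the mm10 chromosomes. Distances were taken from the 5′-most TSS in the direction of transcription. Distal peaks lay over 1 kb from any TSS of any gene. Percentiles are shares of protein-coding genes with a lower value. Computation used Python 3.11.15, pandas 2.3.3 and scipy 1.17.1, and the pairing of peaks and TSS distances were tested on simulated data.

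The members, gene lists and motifs were chosen with earlier results of these data known. Peaks were named by a rule: those within 1 kb of a member's TSS, the 5 strongest distal shared peaks of each window, the 3 strongest in each of 4 segments for Sox9, and the strongest unshared distal peak and widest hotspot of each replicate. In each list the 3 strongest open genes and those with no peak were named, except for some that are not reported here. Other named genes and peaks were chosen after their values were seen. Alternatives changed the TSS window, the TSSs used, the overlap, the flank, the share of peaks kept, the merging of peaks, the motif window and the replicates. Counting overlapping peaks once was added after the data were seen.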

Additional observations from a re-analysis of the deposited data

How the results depend on the processing

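Of 143 alternative values, 119 stayed within the spread between replicates, within 1.5 times the count or, for motifs, within the 95% Wilson interval. For promoter strength and hotspot length, leaving out a replicate gives the value of the other replicate. Those values could not leave the spread between replicates. In the gene lists, a TSS window of 2500 bp or leaving out a replicate can only add open genes. The list sizes keep such counts within 1.5 times, so the place of all these values among the 119 shows no robustness. No paired analysis was possible because the study has 1 group. The Sox10 promoter mean moved from 42 to 60.5 with a TSS window of 2500 bp. Shared peaks followed the window: 16 and 64 for Sox8 and 17 and 69 for Sox10 with 50 and 200 kb on each side, and 30 for Sox9 with 100 kb. With the stronger 50% of peaks Sox9 kept 105 shared peaks, 52 of them distal and upstream, and Sox10 23. The share found in the other replicate, as a mean of both, was 81.0% for Sox8, 71.3% for Sox9 and 74.2% for Sox10. It became 77.2% and 64.7% for Sox8 and Sox9 with 75 bp of overlap, 87.3% and 77.1% with hotspots in place of peaks, and 87.5%, 77.8% and 85.3% for Sox8, Sox9 and Sox10 with the stronger 50% of peaks. Hotspots at the cap alone covered 10.9, 44.8 and 11.6 kb in the windows of Sox8, Sox9 and Sox10. Widening each peak by 50 bp on each side raised the share with ACAAAG to 24.1%, ACAATG to 16.5%, CATCTG to 28.3%, CAGCTG to 26.4% and TAATTA to 10.8%, over 212 peaks. A longer sequence has more room for a match. The share of all distal shared peaks at this width is not given, so these values cannot be set against the genome shares above. Leaving out a replicate gave promoter means of 126 to 128 for Sox8, 130 to 131 for Sox9 and 33 to 51 for Sox10. The order of Sox9, Sox8 and Sox10 was the same in each replicate. Depth is unknown, so a missing peak does not show a closed site.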

Other observations

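In the Sox9 window 102 of all 171 distal shared peaks lay upstream, and so did 16 of 28 with ACAAAG and 17 of 32 with CAGCTG, much the same split. Some other motifs were split differently. All 10 distal shared peaks with the LEF/TCF site CTTTGAA lay upstream, the nearest at 255.5 kb, and so did 27 of 37 with CATCTG and 8 of 10 with TAATTA. The strongest with CTTTGAA scored 93 and 94, 888.1 kb upstream. Of the 13 peaks with a CTCF core 11 lay upstream and 2 downstream, and none lay closer than 400.1 kb to the TSS. ACAATG went the other way, with 6 of 17 upstream. Facing SOX pairs were downstream in 4 of 5 cases. These splits were noticed in the data and not tested.

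In the Sox8 window 5 of 6 peaks with a CTCF core lay downstream, the nearest 2.71 kb from the TSS, within Sox8. In the Sox10 window the core stood in 1 of 8 upstream and 3 of 10 downstream distal peaks, and a pair of those 3 overlap, so they mark 2 sites.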
